A study of Mus musculus with 36 samples.

Results

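The CXCR3 ligand genes Cxcl9, Cxcl10 and Cxcl11 and the chemokine gene Ccl5 were followed in mouse embryonic fibroblast lines of 3 Tbk1 genotypes. The 4 members were taken by symbol from the 49585 genes of each deposited table, and all 4 were found and passed the filter on low counts. Of the 31 other chemokine genes listed for comparison, 17 passed it. Wild type (WT) were E1.5, E2.1, E2.7; heterozygous for the Tbk1 N129D knock-in allele (het) were E1.3, E2.5, E2.6, E2.8; homozygous (hom) were E1.4, E2.2, E2.9. Each line gave 1 library untreated, 1 after 4 h with poly(I:C), an RNA duplex made in vitro that mimics viral RNA, and 1 after 4 h with antimycin and oligomycin (AO), inhibitors of respiratory complex III and of ATP synthase. All lines were grown in DMEM, and the 10 lines with 3 treatments make 30 libraries. Another 6 libraries of E1.5 carry a density label (high or low), with 1 library for each label in each treatment. The labels give neither the strain nor the age of the embryos, and they do not say how poly(I:C) was delivered, so entry by endosome or cytosol cannot be told apart.

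CXCL9, CXCL10 and CXCL11 are small secreted proteins that bind the receptor CXCR3 and draw activated T cells and NK cells towards inflamed tissue. CCL5, also known as RANTES, binds other chemokine receptors, CCR1 and CCR3 among them, and attracts T cells, monocytes and eosinophils. In fibroblasts, double-stranded RNA is sensed by TLR3 in endosomes and by MDA5 and RIG-I in the cytosol, and both routes lead to the kinases TBK1 and IKKε, which phosphorylate IRF3, and to NF-κB. IRF3 and NF-κB act directly on genes such as Cxcl10 and Ccl5 and on the interferon β gene Ifnb1, and secreted interferon then acts through a complex that holds STAT2 and IRF9 on interferon-stimulated response elements (ISRE). Cxcl9 is best known as a target of interferon γ.

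Cxcl9, Cxcl10 and Cxcl11 lie side by side on the minus strand of chromosome 5 (GRCm38): Cxcl9 (ENSMUSG00000029417) at 92321347 to 92328079, Cxcl10 (ENSMUSG00000034855) at 92346638 to 92348889 and Cxcl11 (ENSMUSG00000060183) at 92359544 to 92365485. Ccl5 (ENSMUSG00000035042) lies on the minus strand of chromosome 11 at 83525778 to 83530518. GENCODE annotates Cxcl11 as a polymorphic pseudogene: the C57BL/6 allele carries a frameshift, so that RNA counted there need not give a working protein. Cxcl10 and Cxcl11 lie within Art3, a gene of the opposite strand, whose own level was at most 0.465 CPM (counts scaled to library size) in the 30 libraries. The strand setting of the counting is not given in the sources used here, so reads of Art3 in the shared stretches cannot be told apart from those of the chemokine genes. The expected count of Cxcl10 was not whole in 7 of 36 libraries, those of the other members were whole in all.

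RefSeq promoter sequences (GRCm38.p6) were found for 2 members, Cxcl9 and Cxcl10, and are shown because Cxcl10 had a level in every library while Cxcl9 was near 0 without poly(I:C). Each is the 250 bases before the annotated start, at chr5:92348890-92349139 for Cxcl10 and chr5:92328080-92328329 for Cxcl9, both on the minus strand and printed 5′ to 3′ along the gene. Capitals mark matches to the ISRE core GAAANNGAAA or to the NF-κB site consensus, searched on both strands.
Cxcl10: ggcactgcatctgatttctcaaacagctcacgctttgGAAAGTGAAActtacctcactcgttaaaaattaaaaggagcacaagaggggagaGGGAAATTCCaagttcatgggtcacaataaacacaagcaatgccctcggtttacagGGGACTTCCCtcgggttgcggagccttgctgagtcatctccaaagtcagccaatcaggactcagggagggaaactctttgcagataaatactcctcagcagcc
Cxcl9: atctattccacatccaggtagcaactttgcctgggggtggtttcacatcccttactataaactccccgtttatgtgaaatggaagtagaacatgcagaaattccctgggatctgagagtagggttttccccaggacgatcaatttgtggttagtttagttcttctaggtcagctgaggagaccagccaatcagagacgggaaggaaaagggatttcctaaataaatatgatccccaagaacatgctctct

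The Cxcl10 window held the ISRE core once, at -213 to -204, and the NF-κB consensus at -159 to -150 and at -103 to -94, counted from the start; no match overlapped another. The Cxcl9 window held neither of them and no match to TTCNNNGAA, a consensus of the GAS element of interferon γ response. Elements that depart from these letters were not searched for, so a missing match does not mean that an element is missing. Of 32851 promoter windows of the same length, 2.98% held the ISRE core, 3.90% the NF-κB consensus and 7.02% the GAS element. These are letter matches, not measured binding.

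Depth was 3689144 to 14879227 counts in the 30 libraries. Libraries of the same line were paired by the labels, and a fit with the line as a block is given beside the main one (edgeR over 9 groups, no block) where it changes a call. P-values of the main fit treat the libraries of 1 line as independent. The threshold was an adjusted p (Benjamini-Hochberg, 13364 genes tested) of 0.05. Tbk1 itself, whose sequence but not expression the allele is meant to change, stood at 45.4 ± 5.59 CPM (SD, n = 3) in untreated WT and 45.1 ± 3.99 (SD, n = 3) in untreated hom lines, which says nothing of the genotype. Fibroblast markers were at 8593 to 18852 CPM summed over 10 genes in every group. Macrophage markers stood apart in 2 lines: all 15 were above 0 in hom line E2.9 (152 to 255 CPM summed) and in het line E2.6 (36.4 to 56.8 CPM), against 3.0 to 10.7 CPM in the other lines. T and NK cell markers summed to at most 0.406 CPM and B cell markers to at most 0.307 CPM. Epithelial markers summed to 61.6 to 79.6 CPM in het line E2.5, against 2.38 to 33.6 CPM in the other lines, and endothelial markers to 22.6 to 35.5 CPM in E2.6, against 4.03 to 20 CPM.

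Without treatment, Cxcl10 and Ccl5 had a measurable level in every line, and Cxcl9 and Cxcl11 were at or near 0. Cxcl10 stood at 90.7, 73.1 and 95.8 CPM in E1.5, E2.1, E2.7 (WT), in that order. In E1.3, E2.5, E2.6, E2.8 (het) it stood at 63.2, 162, 39.4 and 52.5 CPM. In E1.4, E2.2, E2.9 (hom) it stood at 4.93, 15.9 and 7.93 CPM. Every hom line was thus below every WT and het line, and the het lines lay on both sides of the WT range.

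Ccl5 without treatment was at 48.9, 20.7 and 29.3 CPM in the WT lines, in the same order. The het lines had 32.2, 41.8, 14.5 and 18.7 CPM. The hom lines had 0.986, 1.25 and 1.01 CPM, from 8, 10 and 8 counts. The hom lines again lay below all others, and close to each other. Cxcl9 and Cxcl11 were each listed at 0 in all 3 untreated hom libraries, had 1 count over the 3 WT libraries and 6 counts over the 4 het libraries. A listing of 0 allows up to 3 counts, which is 0.202 to 0.813 CPM at these depths.

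Poly(I:C) raised all 4 genes, and Cxcl10 reached the highest level of them. Cxcl10 stood at 974, 1219 and 1298 CPM in the WT lines after poly(I:C). The het lines had 837, 3658, 316 and 1278 CPM. The hom lines had 55.5, 132 and 216 CPM. The groups of WT and het overlapped, and the highest hom line lay below the lowest het line.

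Ccl5 reached 145, 97.5 and 107 CPM in the WT lines. The het lines had 109, 273, 29.3 and 106 CPM. The hom lines had 1.95, 18.1 and 17.6 CPM, so that 2 hom lines reached values just under the lowest untreated WT line, and E1.4 stood at 1.75-fold of its own untreated level.

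Cxcl11 was at 11.3, 10.9 and 20.1 CPM in the WT lines after poly(I:C), at 11.4, 41.1, 3.79 and 20.8 CPM in the het lines, and at 0.130, 0.967 and 1.07 CPM in the hom lines. Every hom line was below every other line. Cxcl9 was at 2.62, 9.94 and 10.3 CPM in the WT lines, at 2.5, 45.9, 3.29 and 8.69 CPM in the het lines, and at 0.130, 0.242 and 2.67 CPM in the hom lines. For Cxcl9 the hom range reached into that of the other genotypes, through line E2.9 alone; E1.4 and E2.2 lay below every WT and het line.

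**Figure D1:**
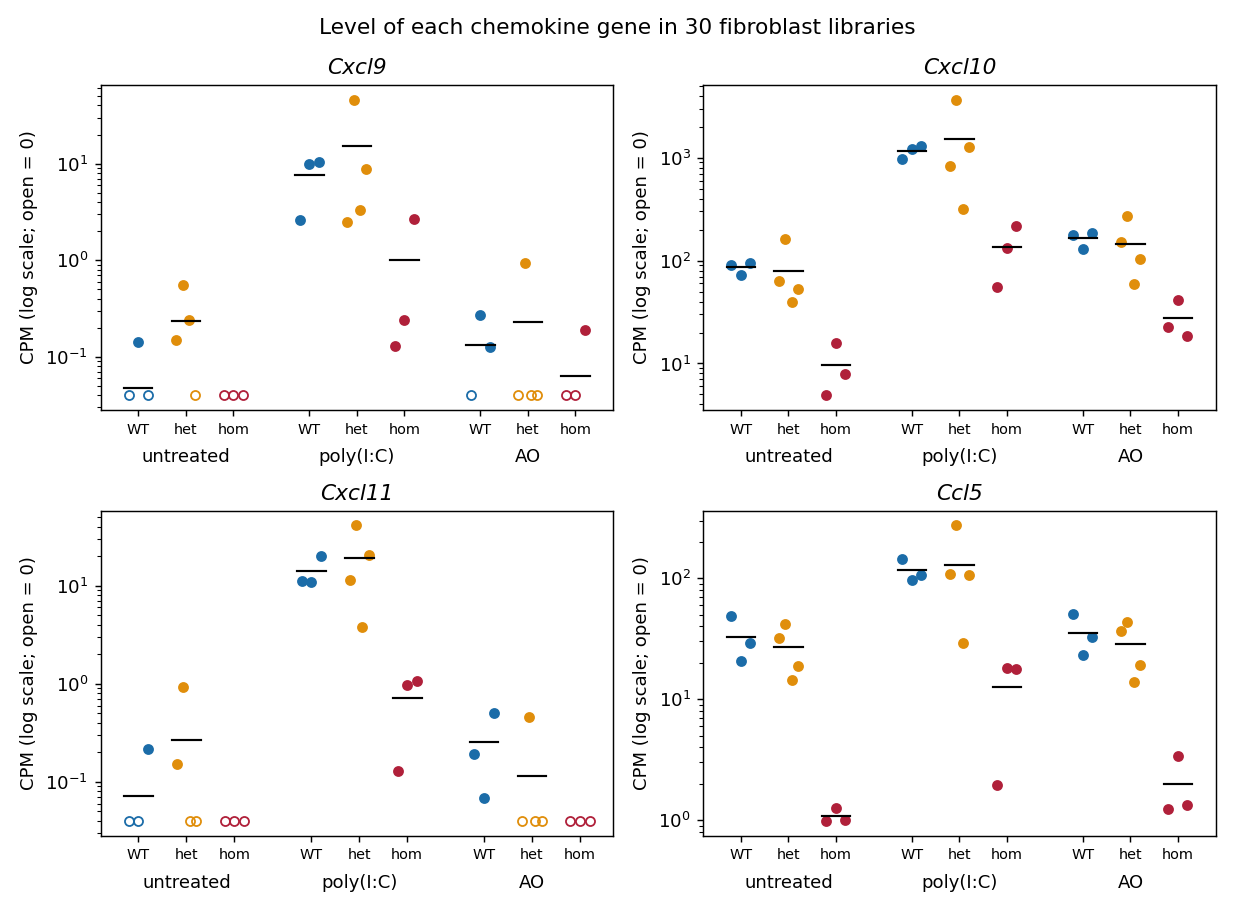
Level of each gene in CPM (log axis) in the 30 libraries, by treatment and genotype; each point is 1 line, bars are group means, and open circles at the foot mark libraries listed at 0. The hom points of Cxcl10 and Ccl5 lie below all WT and het points in each treatment, and Cxcl9 and Cxcl11 are near 0 outside poly(I:C).

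Over the 10 lines, each compared with its own untreated library, the response to poly(I:C) was upward in 10 of 10 lines for each of the 4 genes. For Cxcl9 in E1.4 and E2.2 and for Cxcl11 in E1.4 this was 1 count against 0. A listing of 0 allows up to 3 counts, so a rise was not measured there. The mean log2 difference was 3.82 (SD 0.63) for Cxcl10, 2.17 (SD 0.99) for Ccl5, 3.37 (SD 1.76) for Cxcl9 and 4.03 (SD 1.83) for Cxcl11. An exact two-sided sign-flip permutation test gave p = 0.00195 for each gene, the smallest that 10 lines allow; it is not adjusted, and 10 such tests were computed in all. For Cxcl9 and Cxcl11 this p counts the lines with 1 count against 0 as rises. Of all genes tested, 8.43% were higher in all 10 lines. These log2 values carry a prior count of 2, which understates the change of genes near 0 such as Cxcl9 and Cxcl11.

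In the WT lines, 3 of the 4 genes passed as higher with poly(I:C) in the main fit, against 1.26% of all genes. Cxcl10 rose by a log2 difference of 3.75 (SE 0.72, adjusted p = 0.00534), Cxcl11 by 7.54 (SE 1.34, adjusted p = 0.00463) and Cxcl9 by 6.68 (SE 1.63, adjusted p = 0.0243). Ccl5 differed by 1.82 (SE 0.63) and did not pass (adjusted p = 0.117). With the line as a block, all 4 passed, Ccl5 with 1.88 (adjusted p = 0.000162), against 7.39% of all genes. Without any one of E1.5, E2.1, E2.7 (WT) none of the 4 passed in the main fit, with adjusted p from 0.0692 to 0.239 for the other 3 genes. Of all genes, 2, 19 and 16 passed as higher in these 3 fits, in that order.

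In the het lines, 4 of 4 genes passed as higher, against 2.21% of all genes, and 4 of 4 with the block, against 8.78%. Cxcl10 rose by 4.27 on the log2 scale (SE 0.64, adjusted p = 0.000376) and Ccl5 by 2.28 (SE 0.55, adjusted p = 0.0165). Cxcl9 rose by 6.0 (SE 1.18) and Cxcl11 by 6.30 (SE 0.98). Ccl5 did not pass in the main fit without E1.3, E2.5 or E2.8, with adjusted p of 0.0755, 0.0839 and 0.118. Of all genes, 110, 183 and 76 passed as higher in these fits. Fitted on the compared groups alone, 0 of 4 passed, with adjusted p from 0.0501 for Cxcl11 to 0.110 for Ccl5. There 64 of all 12345 genes tested passed as higher.

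In the hom lines, 2 of 4 genes passed as higher, against 0.531% of all genes. Cxcl10 rose by 3.80 on the log2 scale (SE 0.75, adjusted p = 0.0149) and Ccl5 by 3.47 (SE 0.86, adjusted p = 0.0450). With the block, all 4 passed, Cxcl9 with an adjusted p of 0.00332 and Cxcl11 with 0.0134, against 5.54% of all genes. Without hom line E2.9 none passed in the main fit, with an adjusted p of 0.277 for Cxcl10 and 0.506 for Ccl5, and none passed without E2.2. On the compared groups alone 0 of the 2 genes tested passed, with 0.195 for Cxcl10 and 0.248 for Ccl5. Of all genes, 0 passed as higher without E2.9, 1 without E2.2 and 0 on the compared groups alone. Ccl5 was also lost without any of E1.3, E1.5, E2.1, E2.7 and E2.8, where 24 to 47 of all genes passed as higher.

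Counts of Cxcl9 and Cxcl11 in hom lines were few. Cxcl9 had 17 counts over the 3 hom libraries with poly(I:C), 15 of them from E2.9, the line with the macrophage transcripts, whose part in this value was not tested; E1.4 and E2.2 had 1 count each. Against 3 counts, taken as the floor for the untreated group as a whole, Cxcl9 was at least 7.81-fold higher with poly(I:C) in hom lines. Without E2.9 its 2 remaining counts are under that floor, and no bound can be given. Cxcl11 had 1, 4 and 6 counts in E1.4, E2.2 and E2.9 and was at least 5.06-fold higher. In WT lines the pooled counts rose from 1 to 114 for Cxcl9, a ratio of 121 with a 95% counting interval of 21.2 to 4808. For Cxcl11 they rose from 1 to 228, a ratio of 241 with an interval of 42.9 to 9574. These intervals and floors cover counting error only.

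Ranked by group mean, Cxcl10 was highest in het and then WT lines with poly(I:C), followed by WT and het lines with AO, hom lines with poly(I:C), untreated WT and het lines, hom lines with AO and untreated hom lines. Neighbours in this order overlapped, except that WT lines with poly(I:C) lay clear of WT lines with AO, and hom lines with AO of untreated hom lines. For Ccl5 the one gap between neighbours was again below WT lines with poly(I:C), and hom lines with poly(I:C) ranked under every untreated and AO-treated WT and het group. For Cxcl11 the gap was between WT and hom lines with poly(I:C), and for Cxcl9 all neighbours overlapped. How often other genes have such gaps was not counted, so the gaps only describe these genes.

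**Figure D2:**
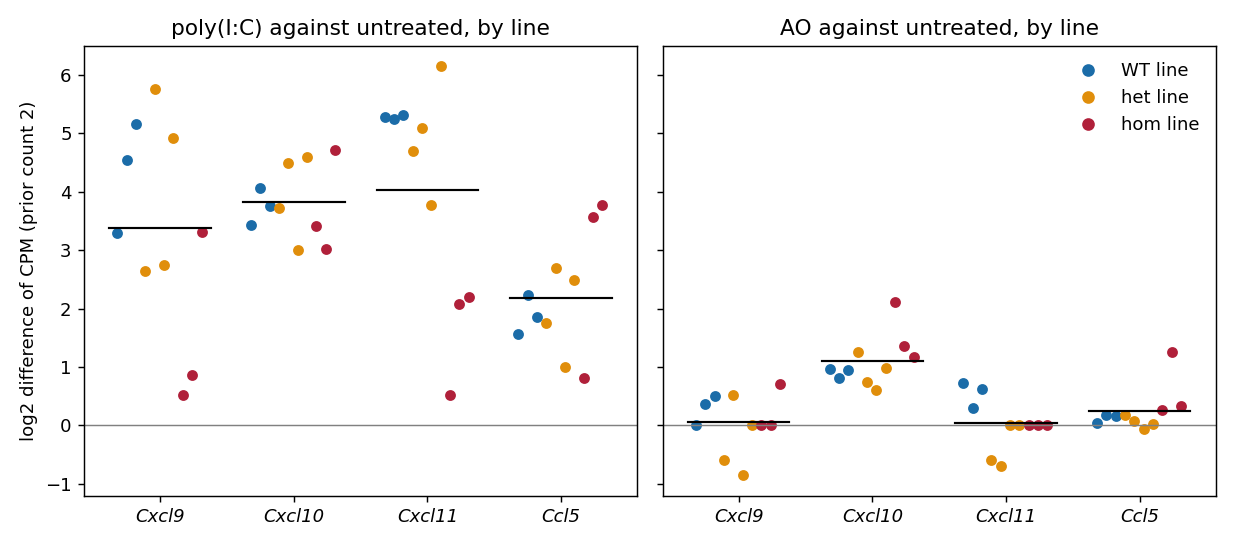
Log2 difference of CPM (prior count 2) between the treated and the untreated library of each line, for poly(I:C) at left and AO at right; points are lines coloured by genotype and bars are means over the 10 lines. All points lie above 0 for poly(I:C), and under AO this holds for Cxcl10 only. With poly(I:C), the points of Cxcl9 in E1.4 and E2.2 and of Cxcl11 in E1.4 rest on 1 count against 0.

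The fold response of Cxcl10 to poly(I:C) did not pass as different between hom and WT lines. Per line it was 10.7-fold, 16.6-fold and 13.5-fold in the WT lines and 10.7-fold, 8.12-fold and 26.3-fold in the hom lines. The difference of the log2 responses, hom minus WT, was 0.05 with a 95% interval of -1.84 to 1.95, and 0.03 with -1.0 to 1.06 with the line as a block. For Ccl5 the response was 2.95-fold, 4.67-fold and 3.61-fold in the WT lines and 1.75-fold, 11.9-fold and 13.7-fold in the hom lines. The difference for Ccl5 was 1.65 (interval -0.57 to 3.87), or 1.53 (interval 0.25 to 2.81, adjusted p = 0.814) with the block.

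For Cxcl9 the same difference was -0.90 (interval -6.37 to 4.58), too wide to be read. For Cxcl11 the response was 38.8-fold, 37.7-fold and 39.6-fold in the WT lines and 1.44-fold, 4.24-fold and 4.58-fold in the hom lines, with a prior count of 2 that weighs more on the few hom counts. The fitted difference for Cxcl11, -2.33 (interval -22.4 to 17.7), was too wide to be read as well. None of the 4 genes passed for hom minus WT or for het minus WT. In edgeR, 0.0% of all genes passed in either of these comparisons, with 156 and 73 genes at an unadjusted p under 0.05, and DESeq2 called none in either.

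Between hom and WT lines, Cxcl10, Ccl5 and Cxcl11 were lower in hom lines by several fold. The mean of Cxcl10 was 86.5 ± 11.9 CPM (SD, n = 3) in WT and 9.60 ± 5.69 (SD, n = 3) in hom lines without treatment, and 1164 ± 169 against 134 ± 80.3 with poly(I:C). The ratio of the means was 9.01 without treatment, 8.66 with poly(I:C) and 5.99 with AO. Ccl5 was at 33 ± 14.5 CPM (SD, n = 3) in WT against 1.08 ± 0.149 (SD, n = 3) in hom lines without treatment, a ratio of 30.5. The ratio of Ccl5 was 9.25 with poly(I:C) and 17.7 with AO. Cxcl11 was at 14.1 ± 5.21 CPM in WT (SD, n = 3) against 0.722 ± 0.515 (SD, n = 3) in hom lines with poly(I:C), a ratio of 19.6.

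Every hom line was below every WT and het line for Cxcl10 and Ccl5 in all 3 treatments and for Cxcl11 with poly(I:C). Of all genes tested this held for 1.17% without treatment, 1.73% with poly(I:C) and 1.56% with AO. In bulk libraries, fewer expressing cells and less RNA per cell cannot be told apart.

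The fitted difference passed for few of these. With poly(I:C), 1 of 4 genes passed as lower in hom lines, against 0.187% of all genes: Ccl5 fell by 3.25 on the log2 scale (SE 0.68, adjusted p = 0.0464). Cxcl10 differed by -3.12 (SE 0.70, adjusted p = 0.0594), Cxcl11 by -4.35 (SE 1.01, adjusted p = 0.0800) and Cxcl9 by -2.88 (SE 1.15, adjusted p = 0.893). With the line as a block, Cxcl10 (adjusted p = 0.00514) and Ccl5 (adjusted p = 0.0110) passed, against 0.501% of all genes. Ccl5 kept its call in the main fit only when the line left out was E2.5 or E2.6, the highest and the lowest het line, and Cxcl10 and Cxcl11 passed as well in those 2 fits. Of all genes, 148 and 90 passed as lower in those 2 fits, and 0 to 12 without any other line. Without both E2.6 and E2.9 the adjusted p was 0.0496 for Cxcl10 and 0.0548 for Ccl5.

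Without treatment, Ccl5 was the 1 member of 4 that passed as lower in hom lines, by a log2 difference of -4.91 (SE 0.84, adjusted p = 0.0473), against 0.015% of all genes. With the block it did not pass (adjusted p = 0.960), and in the main fit it passed only when the line left out was E2.5 or E2.6. Of all genes, 0 passed as lower with the block, 60 without E2.5, 11 without E2.6 and 0 without any other line. Cxcl10 differed by -3.17 (SE 0.74) and did not pass (adjusted p = 0.383; 0.379 with the block), though it did in DESeq2 (adjusted p = 0.00605). With AO, Ccl5 differed by -4.17 (SE 0.84, adjusted p = 0.158) and Cxcl10 by -2.59 (SE 0.71, adjusted p = 0.419), and 0 of 4 passed. In edgeR, 0.0% of all genes passed as lower there, with 1445 genes at an unadjusted p under 0.05 in either direction, while DESeq2 called 35 genes in either direction, Ccl5 among them (adjusted p = 8.54e-06).

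**Figure D3:**
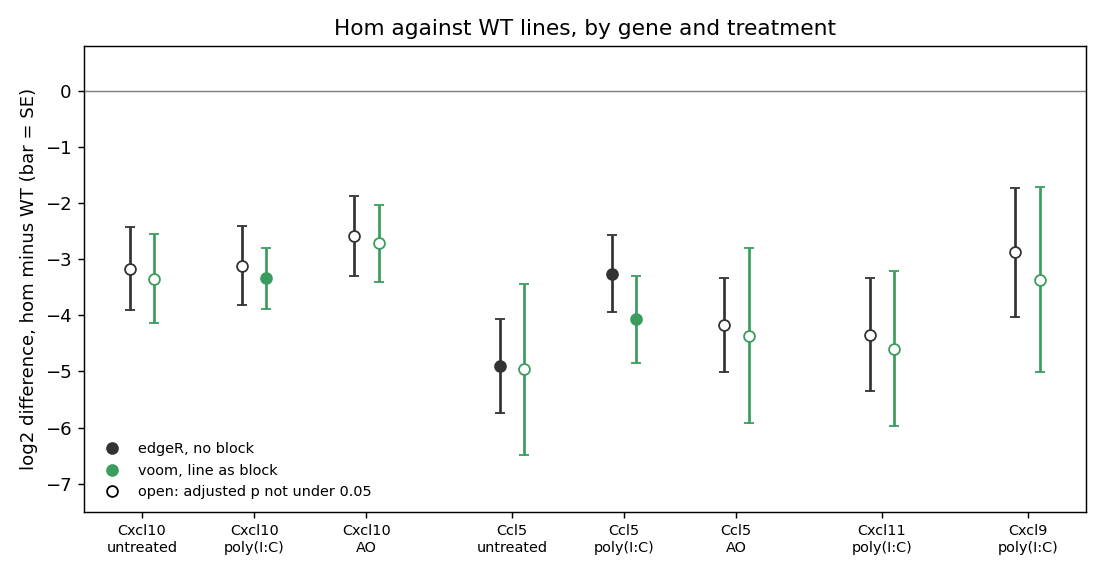
Log2 difference between hom and WT lines (bars are SE) in the edgeR fit without a block and in the voom fit with the line as a block; filled points had an adjusted p under 0.05. All estimates lie below 0, and those of Cxcl10 and Ccl5 with poly(I:C) are filled in the fit with the block.

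No member passed as different between het and WT lines, whose values overlapped throughout. For Cxcl10 with poly(I:C) the log2 difference was 0.39 (95% interval -0.87 to 1.64), and for Ccl5 it was 0.16 (interval -1.01 to 1.32). In edgeR 0.0% of all genes passed without treatment, with poly(I:C) and with AO, with 90, 137 and 64 genes at an unadjusted p under 0.05, and DESeq2 called none in any of them.

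Among the het lines with poly(I:C), Cxcl10 ranged from 316 CPM in E2.6 to 3658 in E2.5, and Ccl5 from 29.3 in E2.6 to 273 in E2.5. E2.5 was the highest and E2.6 the lowest het line for Cxcl10 and Ccl5 in all 3 treatments. The interferon β gene Ifnb1 was also highest in E2.5 (50.7 CPM) and lowest in E2.6 (7.41 CPM) among the het lines with poly(I:C). Between these, E1.3 (18.9 CPM) was above E2.8 (10.8 CPM) for Ifnb1, while for Cxcl10 E1.3 (837 CPM) was below E2.8 (1278 CPM). In E1.4, E2.2, E2.9 (hom) Ifnb1 was at 0.261, 0 and 0.534 CPM. Line E2.6 is also the het line with macrophage transcripts, and E2.5 the one with the highest epithelial markers; the part of either in these levels was not tested.

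Cxcl10 was higher with AO in every line. Ccl5 stayed close to its untreated level in the WT and het lines, and Cxcl9 and Cxcl11 stayed near 0. Cxcl10 was at 178, 129.1 and 186 CPM in the WT lines with AO. The het lines had 151, 271, 59.8 and 104 CPM, and the hom lines 22.4, 41.5 and 18.3 CPM. Each of these 10 values was above that of the same line untreated, by 1.52-fold in E2.6 to 4.35-fold in E1.4. The mean log2 difference over the 10 lines was 1.10 (SD 0.43), with p = 0.00195 in the exact sign-flip test, the smallest possible. Of all genes tested, 14.8% were higher with AO in all 10 lines.

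Ccl5 with AO was at 50.3, 23.3 and 32.8 CPM in the WT lines, at 36.6, 43.9, 13.9 and 19 CPM in the het lines, and at 1.25, 3.41 and 1.34 CPM in the hom lines. Its mean log2 difference was 0.24 (SD 0.38), upward in 9 of 10 lines (exact p = 0.00977). The 7 WT and het lines lay between 0.955-fold and 1.14-fold of their untreated level. Hom line E2.2 had the highest value, 2.39-fold, from 13 counts against 10 in a library of another depth. Without E2.2 the mean was 0.13 (exact p = 0.0195). Cxcl9 (mean 0.07, exact p = 0.688) and Cxcl11 (mean 0.04, exact p = 0.750) stayed at 6 or fewer counts in each group.

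In the fits by genotype, edgeR called 0 of 4 genes as higher with AO in WT, het or hom lines (0 at an unadjusted p under 0.05, and 0 in DESeq2), against 4.23%, 6.17% and 7.36% of all genes. Cxcl10 differed by 0.93 (SE 0.66), 0.89 (SE 0.57) and 1.5 (SE 0.73) on the log2 scale in these genotypes. With the line as a block it passed in het (adjusted p = 0.0307) and hom lines (adjusted p = 0.0143) and not in WT lines (adjusted p = 0.0591), against 12.8%, 14.5% and 11.2% of all genes.

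Cxcl10 responded more than Ccl5 to both treatments. With poly(I:C) its log2 response exceeded that of Ccl5 by 1.65 on average (SD 0.87), in 9 of 10 lines (exact sign-flip p = 0.00391). Hom line E2.2 was the exception. With AO the excess was 0.86 (SD 0.44), in 10 of 10 lines (exact p = 0.00195). This comparison of the 2 genes was added after their values had been seen.

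The count ratio of Cxcl10 to Ccl5 was 2.89 ± 0.904 (SD, n = 3) in untreated WT lines, 10.5 ± 3.24 with poly(I:C) and 4.92 ± 1.2 with AO. In hom lines it was 8.53 ± 3.89 (SD, n = 3), 16 ± 11.1 and 14.6 ± 3.03. The hom ratios lay above all WT and het ratios without treatment and with AO, and overlapped them with poly(I:C), where E1.4 had the highest ratio (28.4) and E2.2 one of the lowest (7.25). Per kilobase of exon and with counts as listed, Cxcl10 made up 98.4% to 100% of the summed level of the 3 CXCR3 ligand genes. The shares of 100% come from libraries with no listed count of Cxcl9 and Cxcl11. Up to 3 counts of each may be missed there, which would lower the share. Untreated E1.4 (hom) had only 40 counts of Cxcl10, and no lower limit of its share was computed.

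**Figure D4:**
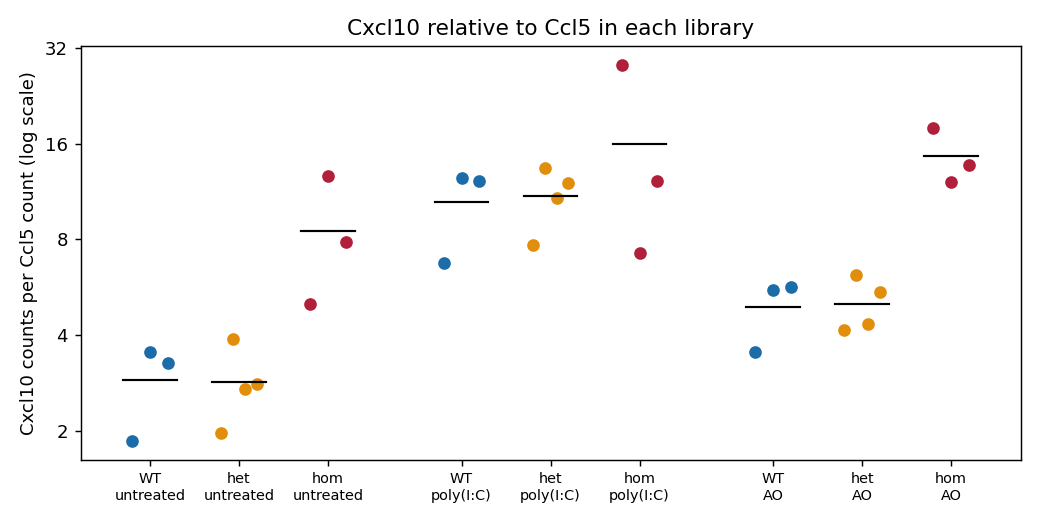
Counts of Cxcl10 per count of Ccl5 (log axis) in each of the 30 libraries, by treatment and genotype; bars are group means. Untreated and AO-treated hom lines lie above the WT and het lines, and the 3 hom lines with poly(I:C) run from 7.25 to 28.4.

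With poly(I:C), all 4 genes were higher at high than at low density in WT line E1.5. Cxcl10 was at 1469 CPM at high density, at 963 CPM in the library with no density label and at 354 CPM at low density. Ccl5 was at 193, 143 and 64.5 CPM in the same order. Cxcl11 was at 20.7, 11.2 and 2.02 CPM and Cxcl9 at 12.4, 2.59 and 0.809 CPM. For all 4 genes the library with no density label lay between the other two.

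Ifnb1, the interferon β gene, was at 43.6 CPM at high density and 1.62 CPM at low density with poly(I:C). Without treatment, Cxcl10 was at 110.0 CPM at high and 66.0 CPM at low density, and Ccl5 at 61.6 and 29.5 CPM. With AO, Cxcl10 was at 207 and 114 CPM and Ccl5 at 59.3 and 38 CPM. Cxcl10 and Ccl5 were thus higher at high density in 3 of 3 treatments, as were 25.6% of the 12491 genes tested.

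In the fit over the 9 libraries of E1.5 with terms for treatment and density, 3 of 4 genes passed as higher at high density, against 8.98% of all genes. Ccl5 was higher by 1.13 on the log2 scale (SE 0.15, adjusted p = 0.00121), Cxcl9 by 3.54 (SE 0.61, adjusted p = 0.000976) and Cxcl11 by 3.21 (SE 0.40, adjusted p = 6.39e-05). Outside poly(I:C), the libraries held 0 to 5 counts of Cxcl9 and 0 to 6 of Cxcl11. The density terms of Cxcl9 and Cxcl11 thus rest mainly on the poly(I:C) libraries, 1 per density. Untreated Cxcl9 was at 0.0413 CPM at high and 0.157 CPM at low density, from 1 count each. Cxcl10 was higher by 1.27 (SE 0.30) and did not pass (adjusted p = 0.0590); without robust weights in the fit it did (adjusted p = 0.000816). Density and depth moved together, with 16474011 to 22756870 counts at high and 5391393 to 6307963 at low density, and cannot be told apart from each other. There is 1 library per density and treatment, all of 1 line.

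The poly(I:C) response of Cxcl10 was 13.4-fold at high and 5.35-fold at low density, and that of Ccl5 3.13-fold and 2.19-fold; with 1 library each, this difference was not tested.

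**Figure D5:**
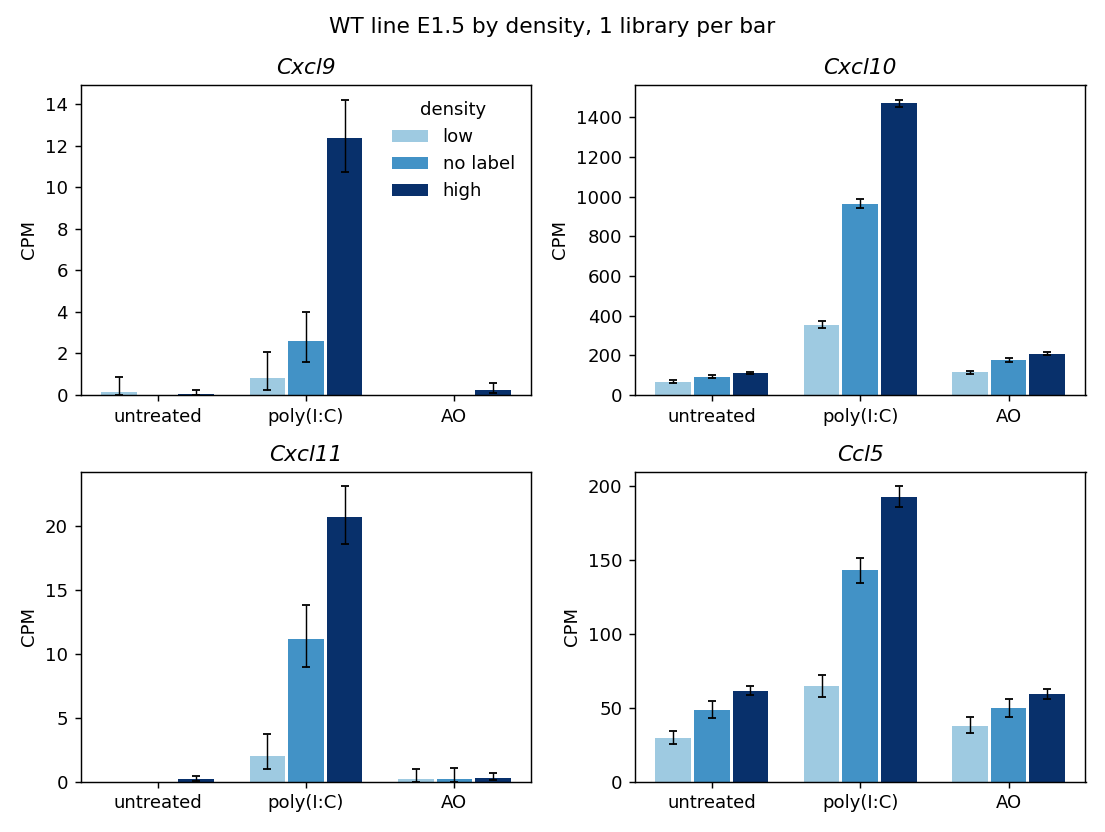
Level in CPM of each gene in WT line E1.5 at low density, with no density label and at high density, by treatment; each bar is 1 library and its error bar a 95% interval for counting error. With poly(I:C) all 4 genes are ordered low, no label, high.

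The receptor genes Cxcr3, Ccr1 and Ccr3 had few or no counts. Cxcr3 had 0 counts in all 30 libraries. Ccr1 had 26 counts over the 30 libraries, 14 of them in E2.9 and 7 in E2.6, the lines with macrophage transcripts, and Ccr3 had 7, 4 of them in E2.6. Ackr3, an atypical receptor that takes up CXCL11 and CXCL12, was present in 30 of 30 libraries, at 5.48 to 94.3 CPM. With AO it fell in WT lines with the block, by 1.34 on the log2 scale (adjusted p = 1.23e-05). With the block it also fell in het (adjusted p = 3.33e-05) and hom lines (adjusted p = 4.77e-05). Of all 13364 genes, 1554, 1947 and 1996 were lower with AO in WT, het and hom lines with the block. In the main fit Ackr3 did not pass in WT (adjusted p = 0.246), het (adjusted p = 0.247) or hom lines (adjusted p = 0.246). Dpp4, whose product is a peptidase that trims CXCL10, was at most 3.63 CPM.

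The other genes of the pathway moved in part with the 4 members. Of 31 other chemokine genes, 17 were tested. With poly(I:C), 5 rose in WT lines (Ccl2, Ccl7, Ccl20, Cxcl1 and Cxcl2) and 5 rose in hom lines, the same 5, and 0 fell in either. With the block 9 rose in WT and 8 in hom lines. Of all genes, 1.26% rose in WT and 0.531% in hom lines, or 7.39% and 5.54% with the block. In WT lines the chemokine count was 1 when E2.7 was left out, and 0 when either E2.1 or E1.5 was. Over all genes, 16, 19 and 2 rose in these fits, in that order. In hom lines the chemokine count was 0 without E2.2, 0 without E2.9, 2 without E2.1, 3 without E2.7 and 0 on the compared groups alone. Over all genes, 1, 0, 24, 37 and 0 rose in these fits, in that order. The median log2 difference of the 17 was 1.05 in WT and 1.08 in hom lines, against 0.01 and 0.00 over all genes. Ccl2, an attractant of monocytes, rose by 3.55 (SE 0.65) and Cxcl2, an attractant of neutrophils, by 5.84 (SE 1.11) in WT lines. Between hom and WT lines with poly(I:C), 0 of the 17 passed in either direction in edgeR (2 at an unadjusted p under 0.05, and 0 passed in DESeq2), and their median difference was 0.53, against 0.02 over all genes. Of all genes, 0.187% passed as lower and 0 as higher in edgeR. The fall of Ccl5 in hom lines and the absence of a call for these 17 were not tested against each other.

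Of 15 NF-κB genes, 4 rose with poly(I:C) in WT lines (Nfkbia, Nfkbie, Tnf and Tnfaip3) and 3 in hom lines, or 8 and 10 with the block. The shares of all genes were 1.26% and 0.531%, or 7.39% and 5.54% with the block. The WT count was 0 when any of the 3 WT lines was left out and 7 on the compared groups alone. The hom count of the 15 was 0 without E2.2 or E2.9, 1 without E2.1 or E2.7 and 2 without E1.3, E1.5 or E2.8. It was 5 without E2.6, 6 without E1.4 and 0 on the compared groups alone. Over all genes in hom lines, 1 rose without E2.2, 0 without E2.9 and 24 to 47 without E2.1, E2.7, E1.3, E1.5 or E2.8. Without E2.6 there were 127, without E1.4 there were 249, and on the compared groups alone 0. Between hom and WT lines with poly(I:C), 0 of the 15 passed in edgeR (2 at an unadjusted p under 0.05) and 0 in DESeq2. Of all genes, 0.187% passed as lower and 0 as higher in edgeR there. Nfkbia, which encodes the inhibitor IκBα, rose by 1.81 (SE 0.35, adjusted p = 0.00534) in WT lines. Of 17 tested genes of interferon production and signalling, 4 rose in WT lines (Ifna4, Ifnb1, Irf1 and Socs1) and 0 in hom lines in edgeR. In hom lines 3 had an unadjusted p under 0.05 and DESeq2 called 1. With the block 9 rose in WT and 6 in hom lines. The shares of all genes are those given for the NF-κB genes, and DESeq2 called 176 of all genes higher in hom lines. The WT count of the 17 was 0 without E1.5, 1 without E2.7, 2 without E2.1, 7 without E2.6 and 8 without E2.5. On the compared groups alone it was 8 of the 16 tested there. Over all genes, 2, 16, 19, 302, 215 and 808 rose in these fits, in that order. Ifnb1 and Irf9, the DNA-binding part of the interferon-activated complex, were lower in hom than in WT lines with poly(I:C), Ifnb1 by a log2 difference of -5.94 (SE 0.92, adjusted p = 0.0253) and Irf9 by -2.35 (SE 0.48, adjusted p = 0.0408). With the block Ifnb1 did not pass (adjusted p = 0.294). Irf9 was lower in mean without poly(I:C) too, at 82.4 CPM in WT and 21.8 in hom lines untreated, and at 81.8 and 20.3 with AO. In edgeR 0 of the 17 passed untreated or with AO. DESeq2 called Irf9 lower in both and Stat2 lower with AO, against 32 of all 13364 genes untreated and 31 with AO. Ifnb1 had 0 counts in both genotypes untreated. Pooled Ifnb1 counts with poly(I:C) were 322 in WT, 674 in het and 5 in hom lines.

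Of 16 genes of RNA sensing, 0 passed with poly(I:C) in WT lines in edgeR and 0 in DESeq2 (6 at an unadjusted p under 0.05 in each), with Ifih1 at 1.51 (SE 0.51, adjusted p = 0.112), and 6 rose with the block. Of all genes, 1.26% rose in edgeR and 7.39% with the block, and DESeq2 called 289 higher. Ifih1, which encodes MDA5, and Dhx58, which encodes LGP2, were lower in hom lines with poly(I:C), by log2 differences of -3.29 (SE 0.56, adjusted p = 0.0211) and -3.70 (SE 0.70, adjusted p = 0.0253). Both were lower in mean without poly(I:C) too. Ifih1 was at 67.5 CPM in WT and 8.47 in hom lines untreated, and at 77.1 and 8.78 with AO. Dhx58 was at 9.32 and 1.66 CPM untreated, and at 7.28 and 1.47 with AO. In edgeR 0 of the 16 passed untreated or with AO, and DESeq2 called Ddx58, Ifih1 and Irf7 lower in both. Of all 13364 genes, DESeq2 called 32 lower untreated and 31 with AO. The lower calls of Ifnb1, Irf9, Ifih1 and Dhx58 in hom lines were all lost in the main fit without any one of E1.3, E1.4, E1.5, E2.1, E2.2, E2.7 and E2.9. Of all genes, 1 passed as lower without E1.3, 2 without E2.1 and 0 without E1.4, E1.5, E2.2, E2.7 or E2.9. The log2 differences in these fits ran from -5.52 to -6.66 for Ifnb1 and -2.20 to -2.56 for Irf9. For Ifih1 they ran from -3.20 to -3.38 and for Dhx58 from -3.55 to -3.80. Without E2.9 their adjusted p was 0.162, 0.247, 0.195 and 0.247. Without E2.8, Ifnb1 (0.0369) and Ifih1 (0.0273) kept the call, with 12 of all genes lower. Without E2.5, 6 interferon and 6 sensing genes passed as lower, without E2.6, 4 and 4, and on the compared groups alone, 5 and 5. Of all genes, 148, 90 and 112 were lower in these fits.

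At high density, 10 of 13 other chemokine genes and 10 of 16 interferon genes passed as higher than at low density in edgeR, against 8.98% of all genes. In DESeq2, 5 of the 13 were higher and 1 lower (Cxcl12), and 8 of the 16 were higher, against 692 higher and 838 lower of all 12491 genes tested. Depth moved with density here too.

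Likeness of pattern was measured as the correlation of log2 CPM over the 30 libraries. The 5 genes most like Ccl5 were Ifit1 (Pearson r = 0.98), Isg15 (0.97), Ddx60 (0.97), Ifih1 (0.96) and Rsad2 (0.96), among 12943 genes compared. For Cxcl10 they were Cmpk2 (0.95), Rsad2 (0.94), Gbp2 (0.94), Mx2 (0.93) and Ifit1 (0.93). For Cxcl9 they were Ifit1bl1 (0.95), Cd274 (0.93), Gbp5 (0.93), Ccrl2 (0.93) and Socs1 (0.91). For Cxcl11 they were Gbp5 (0.96), Socs1 (0.94), Cd274 (0.93), Tent5a (0.93) and Gbp2 (0.92). Among the members themselves, r ran from 0.65 for Cxcl9 with Ccl5 to 0.95 for Cxcl9 with Cxcl11. The 30 libraries share lines, treatments and genotypes, so these values are a description and carry no p.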

How the data were processed

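The authors deposited 1 table of expected counts (estimated read counts per gene) for each library; STAR, RSEM and mm10 are named in the submitters' processing notes, with no versions. RSEM splits reads between the genes they match. The 36 tables were rounded to whole counts and joined by Ensembl identifier to GENCODE vM21. In edgeR 4.0.16 (R 4.3.3) the 30 libraries without a density label were fitted in 9 groups with TMM, filterByExpr (minimum count 10, minimum total 15) and a robust quasi-likelihood F test. CPM use TMM-adjusted totals.

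Per the labels, each line occurs in all 3 treatments; within a line, the libraries' departures from group means correlated (r = 0.342 to 0.765, 30 pairs). The block was a fixed term for responses and limma 3.58.1 voom with duplicateCorrelation for genotypes. No pair within a group agreed within sampling noise (chi-square per degree of freedom 5.34 to 60.7). Line responses used log2 CPM (prior count 2) and 1024 sign patterns.

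Alternatives were RLE factors, no filter, DESeq2 1.42.0, the block, the first part (E1 or E2) of line names as covariate, a fit on only the groups compared, and each line left out; no robust weights, and E2.6 and E2.9 left out together, were added after seeing the data. The test was tried on simulated counts. Named genes are the members, for each list the 3 with the smallest p in WT poly(I:C) and in hom against WT, the genes that passed where 5 or fewer did, and the 5 most alike. Some items are not reported here. Members and lists were chosen with earlier results of these data known.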

Additional observations from a re-analysis of the deposited data

Results flagged for a closer look

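In het line E2.5, 4 values lay far from those of the other 3 het lines, by Dixon's criterion for groups of 4: Cxcl9 with poly(I:C) at 45.9 CPM and with AO at 0.923 CPM, and Cxcl11 untreated at 0.924 CPM and with AO at 0.462 CPM. The last 3 rest on few counts. Chance flags about 1 in 20 groups of normally distributed values. The criterion was used on CPM without a log, which need not be normal, so this rate may not hold here. It does not apply to the 2 values with AO: there the other 3 het lines were listed at 0, so that any value above 0 is marked. E2.5 was also the line with the highest summed epithelial markers, 61.6 to 79.6 CPM, whose part in these values was not tested.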

How the results depend on the processing

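Counts below are of the 4 members that passed, unless said to be over all genes. Of 1020 alternative values of single members, 931 kept their side of the threshold, 56 lost a call, 33 gained one and 0 reversed a call. For poly(I:C) in hom lines the count (2 in the main fit) was 0 without the low-count filter and 0 on the compared groups alone. It was 0 without E2.6 and E2.9 together and 4 with the replicate block. Over all genes, 13, 0, 10 and 741 were higher in these settings, in that order (main 71). In het lines the member count was 0 on the compared groups alone (main 4), against 64 over all genes (main 296). With AO the member count was 1 in WT lines on the compared groups alone and 1 in het and 1 in hom lines with the block (main 0). Over all genes, 1431, 1716 and 1936 were higher there, in that order (main 565, 825 and 983). For hom against WT untreated (main 1) the member count was 0 without the filter, 0 with the block and 0 with the first part of the line name as covariate. It was 0 without E2.6 and E2.9, 2 in DESeq2 and 2 on the compared groups alone. Over all genes, 0 were lower in each setting with 0 members, 32 in DESeq2 and 53 on the compared groups alone (main 2). With poly(I:C) (main 1) the member count was 0 without the filter, 2 with the block, 3 in DESeq2 and 3 with that covariate. Over all genes, 5, 67, 105 and 51 were lower there, in that order (main 25). With AO (main 0) the member count was 1 in DESeq2 and 1 on the compared groups alone, against 31 and 31 over all genes (main 0). Leaving out 1 line at a time, the member count ran from 0 to 4 for poly(I:C) in WT and from 0 to 2 in hom lines. For hom against WT it ran from 0 to 2 untreated, 0 to 3 with poly(I:C) and 0 to 2 with AO. Over all genes, 2 to 649 were higher with poly(I:C) in WT and 0 to 249 in hom lines. For hom against WT, 0 to 60 were lower untreated, 0 to 148 with poly(I:C) and 0 to 59 with AO. Fewer lines leave less power; otherwise the cause was not tested. Over all genes, the block moved the number higher with poly(I:C) in WT lines from 169 to 988. Depth limits Cxcl9 and Cxcl11 outside poly(I:C).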
